A study of Saccharomyces cerevisiae with 8 samples.

Results

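The genes described here are 51 DNA replication and cohesion genes of the budding yeast Saccharomyces cerevisiae, taken from the 6713 rows of the expression tables. They were chosen by gene identity, as the subunits of the machinery that licenses and fires origins, unwinds and copies DNA, supplies deoxynucleotides, works at the fork and holds sister chromatids together. Earlier results of these data were known when the list was made, so its shares are not those of a list drawn blind. All 51 passed the filter on low counts, so none was left out of the tests. The RNA came from strain BY4741, a laboratory haploid, grown to mid-exponential phase. The inductant 1 and inductant 2 groups are wild-type cells that had carried a plasmid overexpressing VTS1 for 48 h, in separate inductions, and were then freed of the plasmid and grown on for generations before harvest. They are labelled [SMAUG+]. Naive cells are untreated wild-type cells, and the deletion group lacks VTS1 and was not treated. Each of the 4 groups has 2 biological replicates, all ribosomal-RNA-depleted total RNA. The labels do not say which promoter drove the plasmid or whether the deletion strain is a single clone.

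In budding yeast, the origin recognition complex and Cdc6 load the MCM helicase on origins in G1, and the Cdc7-Dbf4 kinase and cyclin-dependent kinase then recruit Cdc45 and the GINS complex to form the active helicase. Many of these genes are transcribed in a wave at the G1/S transition, driven by MBF, a Mbp1-Swi6 factor that binds the MCB box ACGCGT, while others, the MCM genes and CDC6 among them, are known to peak at the M/G1 boundary. Vts1 is the yeast member of the Smaug family of RNA-binding proteins, which recognise short hairpins with a CNGG loop and promote decay of the messenger RNA.

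The box ACGCGT was common before these genes, and it was not used to choose them. It was found in the 500 bases before the start codon of 31 of 51 genes, or 60.8%, against 314 of 5737 tested protein-coding genes, or 5.47%. At least 2 copies were present before 13 of the 51 genes, or 25.5%, against 0.575% of tested genes. The box is its own reverse complement, so 1 search covers both strands. Of the 46 copies, 36 lay 100 to 250 bases before the start codon. The related SCB box, written as CGCGAAA or CACGAAA on either strand, was found before 15 of the 51 genes, or 29.4%, against 12.7% of tested genes. The 500-base window can run into a neighbouring gene, and a match is a description of the letters, not a bound site. The stretches that follow are 7 that lie before genes that were called and 2, those of RFA1 and RFA2, that lie before genes with no call. They are from the RefSeq R64 genome, read 5′ to 3′ on the strand of the gene, with each ACGCGT in capitals.
CDC45: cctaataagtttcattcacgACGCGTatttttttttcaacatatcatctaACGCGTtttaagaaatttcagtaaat
CDC6: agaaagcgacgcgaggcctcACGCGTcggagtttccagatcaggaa
POL12: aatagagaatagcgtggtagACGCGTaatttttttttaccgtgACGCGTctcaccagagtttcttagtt
RNR1: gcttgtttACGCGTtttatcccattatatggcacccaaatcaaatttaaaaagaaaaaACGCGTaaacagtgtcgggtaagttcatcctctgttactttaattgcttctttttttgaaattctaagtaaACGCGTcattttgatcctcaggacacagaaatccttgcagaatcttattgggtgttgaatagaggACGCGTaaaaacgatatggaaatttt
CDC21: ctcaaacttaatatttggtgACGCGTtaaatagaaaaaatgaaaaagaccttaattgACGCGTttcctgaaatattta
TOF1: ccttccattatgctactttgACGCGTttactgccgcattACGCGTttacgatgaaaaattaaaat
MCD1: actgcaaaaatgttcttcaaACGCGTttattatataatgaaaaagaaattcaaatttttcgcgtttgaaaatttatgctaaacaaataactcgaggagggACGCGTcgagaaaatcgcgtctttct
RFA1: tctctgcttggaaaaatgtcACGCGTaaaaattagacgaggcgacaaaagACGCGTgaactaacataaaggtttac
RFA2: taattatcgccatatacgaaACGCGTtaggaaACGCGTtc
The CDC45 stretch is chrXII:346066-346141 on the minus strand and the CDC6 stretch is chrX:69114-69159 on the plus strand. Those of POL12 and RNR1 are chrII:153784-153852 (minus) and chrV:298450-298669 (plus), and those of CDC21 and TOF1 are chrXV:467690-467767 (minus) and chrXIV:122708-122772 (plus). The MCD1 stretch is chrIV:444291-444416 (plus), the RFA1 stretch chrI:158729-158804 (minus) and the RFA2 stretch chrXIV:48147-48186 (plus). None of these overlaps an annotated gene except that of POL12, which overlaps the neighbouring gene YBL034C at 1 or more bases.

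Hairpins of the type that Smaug proteins recognise were few, and the difference from other genes was not tested. A loop of CNGG with up to 3 further bases, closed by 5 Watson-Crick pairs, was found in the coding sequence of 2 of 51 genes, or 3.92%, against 7.29% of the 5737 tested genes, where the median coding length of the 51 was greater, 1953 against 1245 bases. They occurred in MCM2, at chrII:175676-175689 on the minus strand, and in POL12, at chrII:151646-151661 on the minus strand, and are written as RNA with the loop in capitals. Neither the fold of these letters in the cell nor binding was measured.
MCM2: acgauCAGGaucgu
POL12: aaaucCCGGAAgauuu

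The libraries held 18431474 to 27501966 estimated counts each. VTS1 itself had 472 to 794 estimated counts in the 6 libraries from cells with the gene and 0 and 2 in the deletion libraries, as their labels say. Naive replicates differed more than the other pairs: the chi-square of their counts per degree of freedom was 55.7, against 5.45 to 20.6 in the other groups. The p-values measure the spread between replicate cultures within a group. They do not cover the spread between separate inductions. Since all samples are bulk cultures, a change in the share of cells in S phase and a change in RNA per cell cannot be told apart.

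Compared with naive cells, more of the replication and cohesion genes rose than fell, both in the inductants and in the deletion. Against naive, 11 of the 51 genes rose in the inductants, fitted as a pair, and none fell at an adjusted p under 0.05 (edgeR quasi-likelihood test, Benjamini-Hochberg over the 6230 genes tested), which is 21.6% of the list. Over all genes tested, 8.57% were called, 2.97% higher and 5.6% lower. DESeq2 and limma also gave no member that fell. The median log2 fold change of the 51 genes was 0.18, against -0.0073 over all genes, with 43 values above 0 and 8 below it. All 4 inductant libraries exceeded both naive libraries for 28 genes, or 54.9%, against 14.9% of all genes, and no member lay wholly below naive. In the deletion, 13 genes rose and 2 fell against naive, 25.5% and 3.92% of the list, where 26.3% of all genes were called, 11.7% higher and 14.6% lower. The median there was 0.18, against a median of about 0 over all genes, and 40 values lay above 0. Both deletion libraries exceeded both naive libraries for 33 of the 51 genes, or 64.7%, against 32.4% of all genes. They lay below both for 5 of the 51, against 32% of all genes. The comparisons share the naive libraries, so their values are not independent. Directly compared with the deletion, 8 genes were higher in the inductants and 4 lower, 23.5% of the list, a smaller share than the 37.6% of all genes that differed, 18.7% higher and 19% lower. The inductant libraries lay wholly above the deletion libraries for 10 of the 51 genes, or 19.6%, against 27% of all genes. They lay wholly below for 7 of the 51, against 28.4% of all genes.

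**Figure D1:**
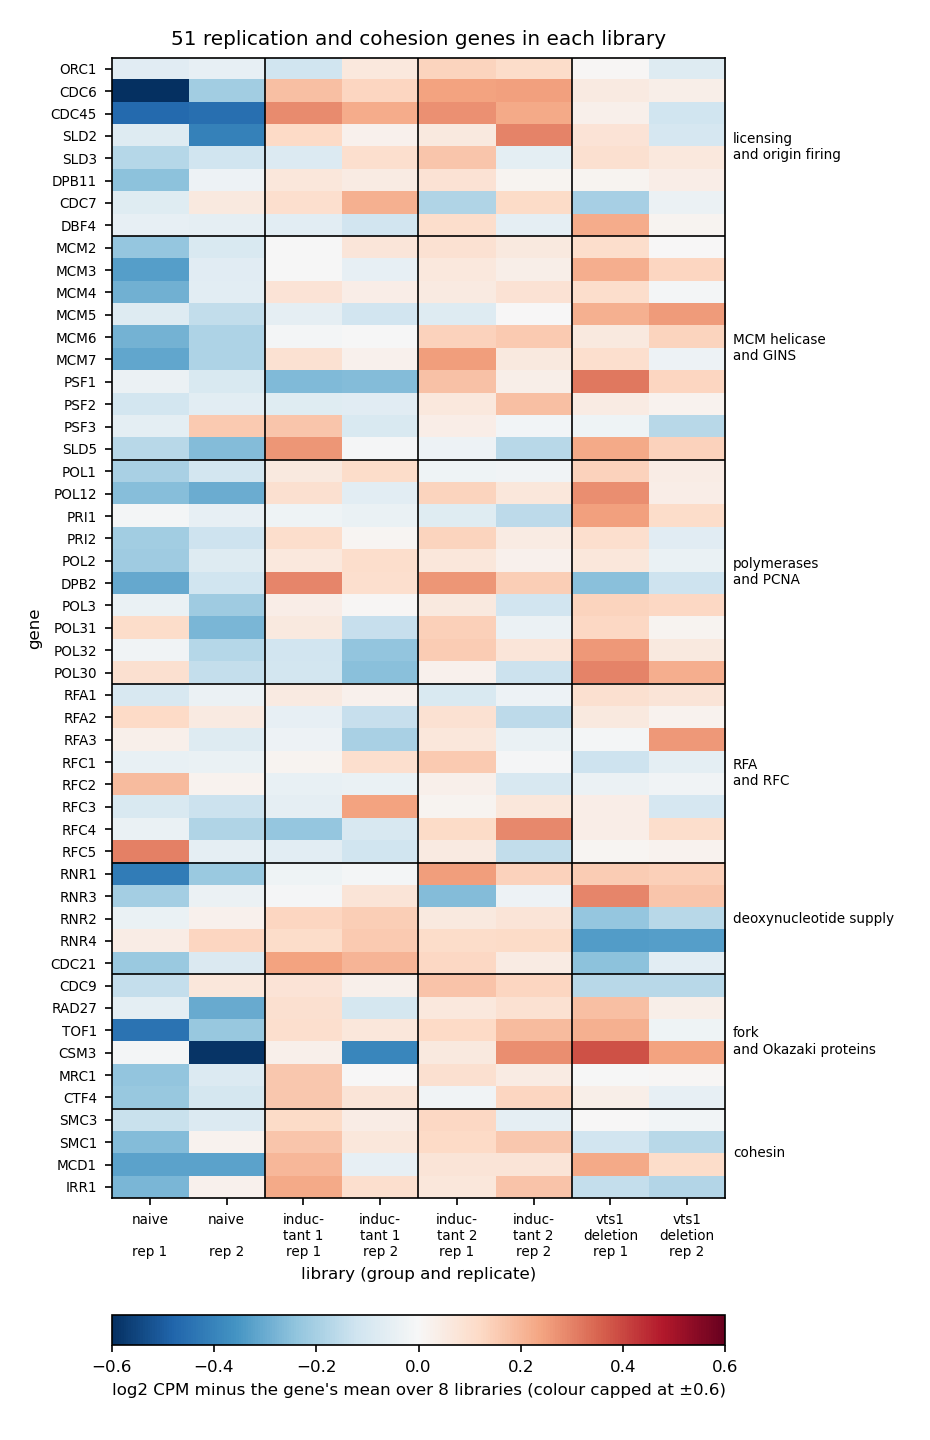
Log2 CPM of each gene minus the mean of that gene over the 8 libraries, by library (columns) and gene grouped by role (rows); red is above the mean, blue below it, and colours are capped. The 2 naive columns are mostly blue, with 7 and 9 of the 51 genes above their mean, against 29 to 43 in the other libraries.

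The same is seen library by library. The median deviation of the 51 genes from their own means was -0.13 and -0.09 on the log2 scale in the naive libraries. It was 0.06 and 0.02 in inductant 1, 0.09 and 0.06 in inductant 2, and 0.07 and 0.02 in the deletion. Summed over the 46 genes outside deoxynucleotide supply, levels per length (TPM) were 1442 and 1487 in naive, 1633 to 1742 in the inductants and 1720.2 and 1779.8 in the deletion. Over all 51 genes the sums were 2877 and 3070 in naive, 3331 to 3521 in the inductants and 3204 and 3172 in the deletion. There the deletion lay between naive and the inductants. No naive library reached the lowest of the others in any of these measures.

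Among the 8 genes of licensing and origin firing, CDC45 (YLR103C) and CDC6 (YJL194W) rose in both comparisons with naive. CDC45, part of the active helicase, was at 20.1 and 20.3 CPM in naive, 34.2 and 32.7 in inductant 1, 33.9 and 32.8 in inductant 2 and 28.6 and 25.7 in the deletion, where CPM are counts scaled to library size by the TMM method. The 4 inductant libraries lay above both deletion libraries, which lay above both naive libraries. The log2 fold change was 0.72 ± 0.09 (SE, adjusted p = 0.0006) in the inductants, the largest of the 51, and 0.43 ± 0.10 (SE, adjusted p = 0.0108) in the deletion. The difference between them was 0.30 ± 0.09 (SE, adjusted p = 0.0199). Changes given for other genes are log2 fold changes with the SE of the fit as well. CDC6, the loader of the MCM helicase, was at 19.7 and 27.5 CPM in naive, 36.2 and 34.8 in inductant 1, 37.7 and 37.9 in inductant 2 and 33.1 and 32.7 in the deletion. Naive replicate 1 was the lowest library, and no library of another group came down to naive replicate 2. CDC6 rose by 0.63 ± 0.12 (SE, adjusted p = 0.00838) in the inductants and by 0.48 ± 0.13 (SE, adjusted p = 0.0246) in the deletion. A part of its reads, 9.87 to 19.6% of the pair, was assigned to the row YJL195C, which RefSeq does not list. With both rows summed, the adjusted p of CDC6 in the deletion was 0.0507, just over the threshold, and that in inductant 1 taken singly was 0.0719. The other 6 genes were not called in any of the 3 comparisons by edgeR, DESeq2 or limma. Their log2 fold changes in the inductants ran from 0.02 ± 0.08 for DBF4 (YDR052C), the regulatory subunit of the Cdc7 kinase, to 0.37 ± 0.13 for SLD2 (YKL108W), which the cyclin-dependent kinase phosphorylates to start replication. Between these were CDC7 (YDL017W) itself at 0.07 ± 0.11, ORC1 (YML065W) of the origin recognition complex at 0.11 ± 0.07, SLD3 (YGL113W) at 0.19 ± 0.10 and its partner DPB11 (YJL090C) at 0.19 ± 0.09.

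The 10 MCM helicase and GINS genes had median log2 fold changes of 0.21 in the inductants and 0.29 in the deletion. Of the MCM subunits, MCM6 (YGL201C) and MCM7 (YBR202W) rose in both. MCM6 was at 83.2 and 89.0 CPM in naive, 100.4 and 101 in inductant 1, 111 and 113 in inductant 2 and 105 and 111 in the deletion, and MCM7 at 90.7 and 98.9 CPM in naive, 119.9 and 115 in inductant 1, 134 and 117 in inductant 2 and 121 and 110.4 in the deletion. For both genes every library outside the naive group exceeded both naive libraries. MCM6 rose by 0.30 ± 0.06 (SE, adjusted p = 0.0105) in the inductants and by 0.33 ± 0.07 (SE, adjusted p = 0.00526) in the deletion. The values of MCM7 were 0.36 ± 0.07 (SE, adjusted p = 0.0153) and 0.29 ± 0.09 (SE, adjusted p = 0.03). MCM3 (YEL032W) and MCM5 (YLR274W) passed the threshold in the deletion alone, and MCM5 is the one that also differed from the inductants. MCM3 was at 125 and 149 CPM in naive, 156 and 152 in inductant 1, 164 and 161 in inductant 2 and 182 and 172 in the deletion, a log2 fold change of 0.37 ± 0.09 (SE, adjusted p = 0.0104) in the deletion and 0.21 ± 0.08 (SE, adjusted p = 0.114) in the inductants. MCM5 was at 62.3 and 59.3 CPM in naive, 63.2 and 60.6 in inductant 1, 62.3 and 65.9 in inductant 2 and 76.2 and 78.4 in the deletion. Its inductant and naive libraries overlapped, and both deletion libraries stood above all 6 others. MCM5 rose by 0.35 ± 0.08 (SE, adjusted p = 0.00692) in the deletion, against 0.05 ± 0.07 (SE, adjusted p = 0.652) in the inductants, and differed between the inductants and the deletion by -0.30 ± 0.06 (SE, adjusted p = 0.00473), lower in the inductants. MCM2 (YBL023C) and MCM4 (YPR019W) had values of 0.22 ± 0.07 and 0.24 ± 0.07 in the inductants and 0.21 ± 0.08 and 0.22 ± 0.08 in the deletion, none of them called by edgeR. DESeq2 called MCM4 in the inductants, with an adjusted p of 0.0477. The 4 GINS genes, at 8.17 to 22.3 CPM, had no call by edgeR. In the inductants PSF1 (YDR013W) and PSF3 (YOL146W) lay near 0, at -0.02 ± 0.13 and -0.03 ± 0.11, with PSF2 (YJL072C) at 0.12 ± 0.12 and SLD5 (YDR489W) at 0.24 ± 0.12. In the deletion SLD5 was at 0.42 ± 0.14 (SE, adjusted p = 0.0514). By limma on log2(TPM + 1), SLD5 and PSF1 were called in the deletion, with adjusted p of 0.0302 and 0.0327, and PSF1 between the inductants and the deletion, with an adjusted p of 0.0232.

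Of the 10 polymerase and PCNA genes, 6 were called by edgeR in at least 1 comparison, a share not given for all genes. By comparison, 20% were called in the inductants, 40% in the deletion and 30% between these groups. Over all genes the shares were 8.57%, 26.3% and 37.6%. POL12 (YBL035C), the regulatory subunit of DNA polymerase alpha, rose in both comparisons with naive. It was at 37.0 and 36.0 CPM in naive, 47.3 and 42.4 in inductant 1, 48.7 and 46.4 in inductant 2 and 53.8 and 45.6 in the deletion, with every other library above naive. Its values were 0.34 ± 0.09 (SE, adjusted p = 0.041) in the inductants and 0.45 ± 0.10 (SE, adjusted p = 0.00888) in the deletion. DPB2 (YPR175W), a subunit of polymerase epsilon, rose in the inductants alone and differed from the deletion. DPB2 was at 35.8 and 40.9 CPM in naive, 54.5 and 47.8 in inductant 1, 53.5 and 49.4 in inductant 2 and 37.3 and 40.7 in the deletion. All 4 inductant libraries stood above the naive and deletion libraries, which overlapped. The log2 fold change of DPB2 was 0.42 ± 0.09 (SE, adjusted p = 0.0186) against naive and 0.39 ± 0.09 (SE, adjusted p = 0.00659) against the deletion, while the deletion differed from naive by 0.02 ± 0.10 (SE, adjusted p = 0.9). POL30 (YBR088C), which encodes the sliding clamp PCNA, went the other way. It was at 88.3 and 74.8 CPM in naive, 76.5 and 69.4 in inductant 1, 84.2 and 75.5 in inductant 2 and 102 and 96.3 in the deletion. Both deletion libraries were above all others, and the inductants overlapped naive. POL30 was higher in the deletion by 0.28 ± 0.09 (SE, adjusted p = 0.05), just inside the threshold, and the inductants differed from the deletion by -0.38 ± 0.08 (SE, adjusted p = 0.00451), lower in the inductants. Of the pair, 0.47 to 4.51% of the reads were assigned to the row YBR089W, which shares reads with POL30.

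A further 3 polymerase genes were called once each by edgeR. POL1 (YNL102W), the catalytic subunit of polymerase alpha, was at 172 and 183 CPM in naive, 206 and 213 in inductant 1, 194 and 194 in inductant 2 and 217 and 203 in the deletion, and rose by 0.24 ± 0.07 (SE, adjusted p = 0.0236) in the deletion. POL3 (YDL102W), the catalytic subunit of polymerase delta, was at 83.8 and 74.3 CPM in naive, 88.6 and 86.5 in inductant 1, 89.6 and 79.5 in inductant 2 and 94.5 and 93.7 in the deletion, and rose by 0.25 ± 0.08 (SE, adjusted p = 0.0442) in the deletion. PRI1 (YIR008C), a primase subunit, was at 30.0 and 29.2 CPM in naive, 29.7 and 29.4 in inductant 1, 28.8 and 27.1 in inductant 2 and 36.0 and 32.7 in the deletion. Its inductant libraries overlapped naive and lay below both deletion libraries, a difference of -0.26 ± 0.08 (SE, adjusted p = 0.0314). POL2 (YNL262W), the catalytic subunit of polymerase epsilon, and PRI2 (YKL045W), the other primase subunit, were higher in all inductant and deletion libraries than in naive without a call by edgeR, at 0.21 ± 0.06 and 0.24 ± 0.08 in the inductants. There DESeq2 called POL2, with an adjusted p of 0.035, and limma called PRI1 in the deletion against naive, with an adjusted p of 0.042. POL31 (YJR006W) and POL32 (YJR043C), the small subunits of polymerase delta, had log2 fold changes of 0.08 ± 0.12 and 0.07 ± 0.10 in the inductants and 0.14 ± 0.13 and 0.26 ± 0.12 in the deletion.

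The 8 genes of replication protein A, which coats single-stranded DNA, and of the clamp loader RFC had no call in any comparison (edgeR). At an unadjusted p under 0.05 they gave 0 in the inductants, 1 in the deletion and 1 between these groups, and DESeq2 and limma called 0 in each. Their median log2 fold changes against naive were 0.02 in the inductants and 0.02 in the deletion, with 4 values above 0 and 4 below in each. In the inductants they ran from -0.20 ± 0.11 for RFC5 (YBR087W) and -0.15 ± 0.08 for RFA2 (YNL312W) to 0.18 ± 0.09 for RFC3 (YNL290W). RFC2 (YJR068W) was at -0.15 ± 0.08, RFA3 (YJL173C) at -0.03 ± 0.11, RFA1 (YAR007C) at 0.06 ± 0.06, RFC1 (YOR217W) at 0.11 ± 0.07 and RFC4 (YOL094C) at 0.13 ± 0.10. RFA1 and RFA2 have 2 MCB boxes each in the stretches printed for them, the same number as CDC45.

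Of the 5 genes of deoxynucleotide supply, 4 differed between the inductants and the deletion by edgeR and 3 by DESeq2 and by limma, where edgeR called 37.6% of all genes. RNR1 (YER070W), the large subunit of ribonucleotide reductase, rose in both. It was at 523 and 598 CPM in naive, 686 and 693 in inductant 1, 834 and 769 in inductant 2 and 776 and 773 in the deletion, with every other library above naive. The log2 fold change was 0.41 ± 0.07 (SE, adjusted p = 0.00416) in the inductants and 0.47 ± 0.08 (SE, adjusted p = 0.00139) in the deletion. RNR2 (YJL026W) and RNR4 (YGR180C), the small subunits, fell in the deletion. RNR4 was at 602 and 639.8 CPM in naive, 629.8 and 653 in inductant 1, 631 and 633 in inductant 2 and 463 and 464 in the deletion. Both deletion libraries were far below the other 6, among which the inductant and naive libraries overlapped. RNR4 fell by 0.42 ± 0.06 (SE, adjusted p = 0.000787) on the log2 scale in the deletion, was at 0.04 ± 0.05 (SE, adjusted p = 0.715) in the inductants, and was higher in the inductants than in the deletion by 0.46 ± 0.06 (SE, adjusted p = 0.000132). RNR2 was at 646 and 676 CPM in naive, 726 and 734 in inductant 1, 691 and 701 in inductant 2 and 566 and 591 in the deletion. The order was inductants, naive and deletion, with no overlap. RNR2 fell by 0.19 ± 0.06 (SE, adjusted p = 0.0417) on the log2 scale in the deletion and was higher in the inductants than there by 0.30 ± 0.05 (SE, adjusted p = 0.00165). RNR3 (YIL066C), the large subunit induced by DNA damage, was at 19.1 and 21.6 CPM in naive, 21.9 and 23.4 in inductant 1, 18.3 and 21.6 in inductant 2 and 27.1 and 24.9 in the deletion. Both deletion libraries were above all others, by 0.35 ± 0.12 (SE, adjusted p = 0.053) against naive and, with the sign of the inductants relative to the deletion, -0.29 ± 0.10 (SE, adjusted p = 0.049). That last call of RNR3 was lost with RLE scaling, DESeq2 and limma. CDC21 (YOR074C), thymidylate synthase, was at 43.9 and 48.3 CPM in naive, 60.8 and 59.2 in inductant 1, 56.0 and 53.0 in inductant 2 and 43.2 and 49.1 in the deletion. It rose in the inductants by 0.31 ± 0.08 (SE, adjusted p = 0.0376) against naive and was higher than in the deletion by 0.31 ± 0.08 (SE, adjusted p = 0.0119). Its deletion and naive libraries overlapped, at 0.00 ± 0.09 (SE, adjusted p = 0.991). Neither RNR2 nor RNR4 has an MCB box in its 500-base window.

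**Figure D2:**
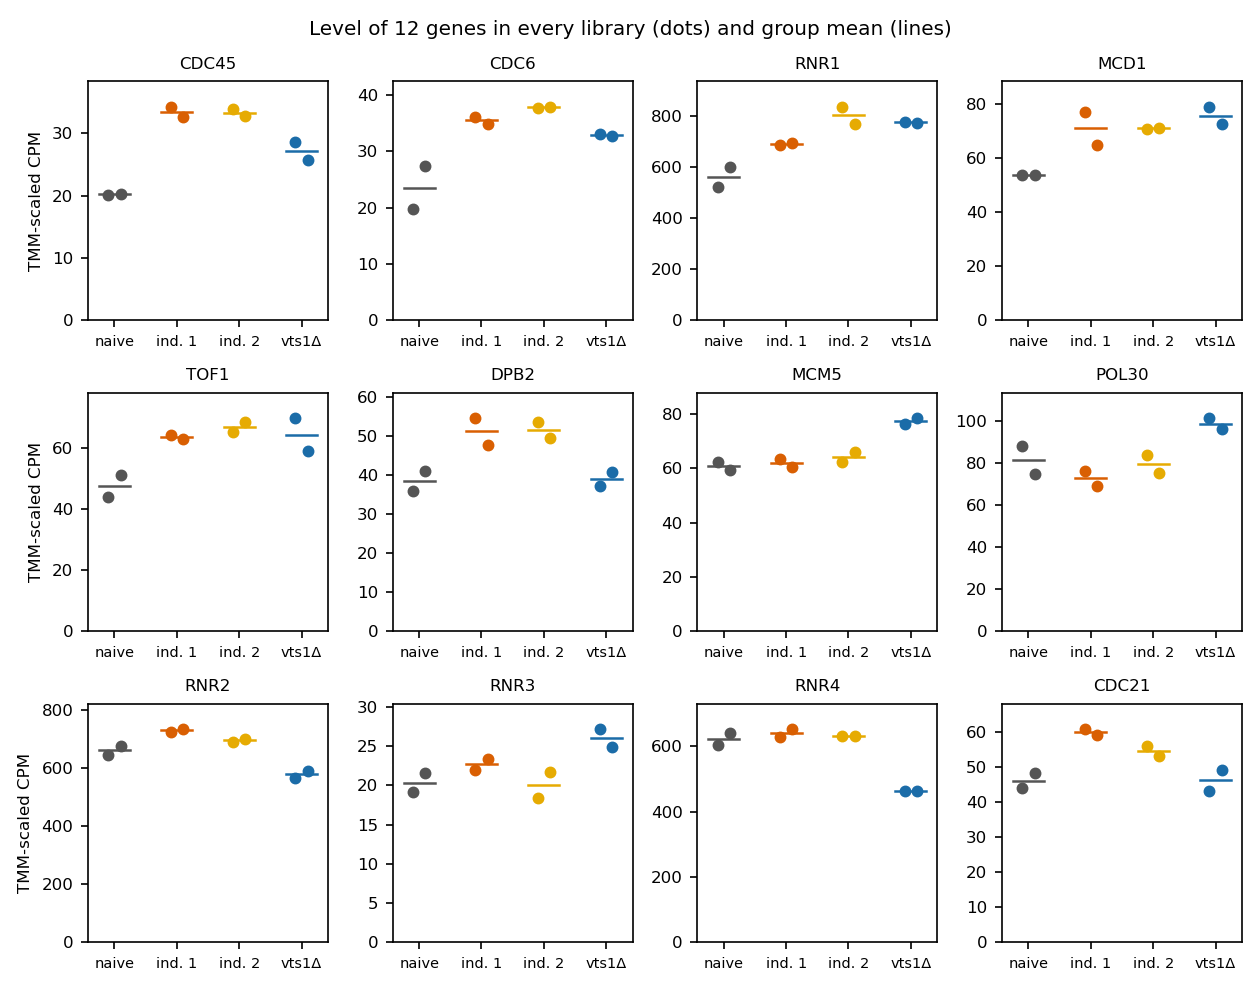
TMM-scaled CPM of 12 of the 51 genes in every library (dots) with the group mean (lines), each panel on its own axis from 0. CDC45, CDC6, RNR1, MCD1 and TOF1 are lowest in naive, DPB2 and CDC21 are highest in the inductants (ind. 1 and ind. 2), and RNR4 is lowest in the deletion, with 463 and 464 against 602 to 653 elsewhere.

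Of the 6 fork and Okazaki fragment genes, TOF1 (YNL273W) rose in both comparisons. TOF1, a subunit of the fork protection complex, was at 44.0 and 51.2 CPM in naive, 64.3 and 62.8 in inductant 1, 65.3 and 68.5 in inductant 2 and 69.7 and 58.9 in the deletion, with every other library above naive, and its values were 0.45 ± 0.09 (SE, adjusted p = 0.0114) and 0.43 ± 0.10 (SE, adjusted p = 0.0107). CTF4 (YPR135W), which links the helicase to polymerase alpha, was at 69.0 and 75.3 CPM in naive, 90.5 and 85.6 in inductant 1, 79.9 and 88.5 in inductant 2 and 82.9 and 78.3 in the deletion. It rose by 0.25 ± 0.07 (SE, adjusted p = 0.0488) in the inductants, close to the threshold, and was at 0.16 ± 0.08 (SE, adjusted p = 0.169) in the deletion. CDC9 (YDL164C), the DNA ligase that joins Okazaki fragments, was at 83.4 and 96.6 CPM in naive, 97.5 and 94.1 in inductant 1, 104 and 101 in inductant 2 and 82.0 and 82.0 in the deletion. It was higher in the inductants than in the deletion by 0.27 ± 0.07 (SE, adjusted p = 0.0111) and called against naive in neither. The partners of Tof1 gave 0.29 ± 0.19 for CSM3 (YMR048W) and 0.23 ± 0.07 for MRC1 (YCL061C) in the inductants, and RAD27 (YKL113C), the flap endonuclease, gave 0.22 ± 0.09. In the deletion limma called RAD27, with an adjusted p of 0.0492, and edgeR did not. CSM3 was at 0.62 ± 0.22 in the deletion, an SE wider than that of any other member, with 5.94 to 12.1 CPM over the libraries.

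All 4 cohesin genes were higher in each inductant library than in both naive libraries, as were 14.9% of all genes, and MCD1 (YDL003W) was the one that rose by edgeR and by limma. DESeq2 called 3 of the 4, MCD1 and, at adjusted p of 0.0492 and 0.0472, SMC1 and IRR1. The share of all genes that DESeq2 called is not given here. MCD1, the kleisin subunit that separase cleaves, was at 53.8 and 53.8 CPM in naive, 77.2 and 65.0 in inductant 1, 70.9 and 71.1 in inductant 2 and 78.9 and 72.6 in the deletion. Every other library was above naive. Its log2 fold change was 0.40 ± 0.08 (SE, adjusted p = 0.0118) in the inductants and 0.49 ± 0.09 (SE, adjusted p = 0.00274) in the deletion. SMC1 (YFL008W) and IRR1 (YIL026C) differed between the inductants and the deletion. SMC1, a coiled-coil ATPase subunit, was at 129 and 158 CPM in naive, 174 and 163 in inductant 1, 169 and 174 in inductant 2 and 143 and 138 in the deletion. IRR1, the Scc3 subunit, was at 98.5 and 121 CPM in naive, 139.9 and 128 in inductant 1, 125 and 134 in inductant 2 and 108 and 106 in the deletion. For both, the inductant libraries lay above all deletion libraries and the deletion overlapped naive. The differences from the deletion were 0.27 ± 0.08 (SE, adjusted p = 0.0206) and 0.30 ± 0.08 (SE, adjusted p = 0.0161), and those from naive were 0.24 ± 0.08 (SE, adjusted p = 0.081) and 0.26 ± 0.08 (SE, adjusted p = 0.0788). SMC3 (YJL074C) was at 0.17 ± 0.07 (SE, adjusted p = 0.133) against naive.

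**Figure D3:**
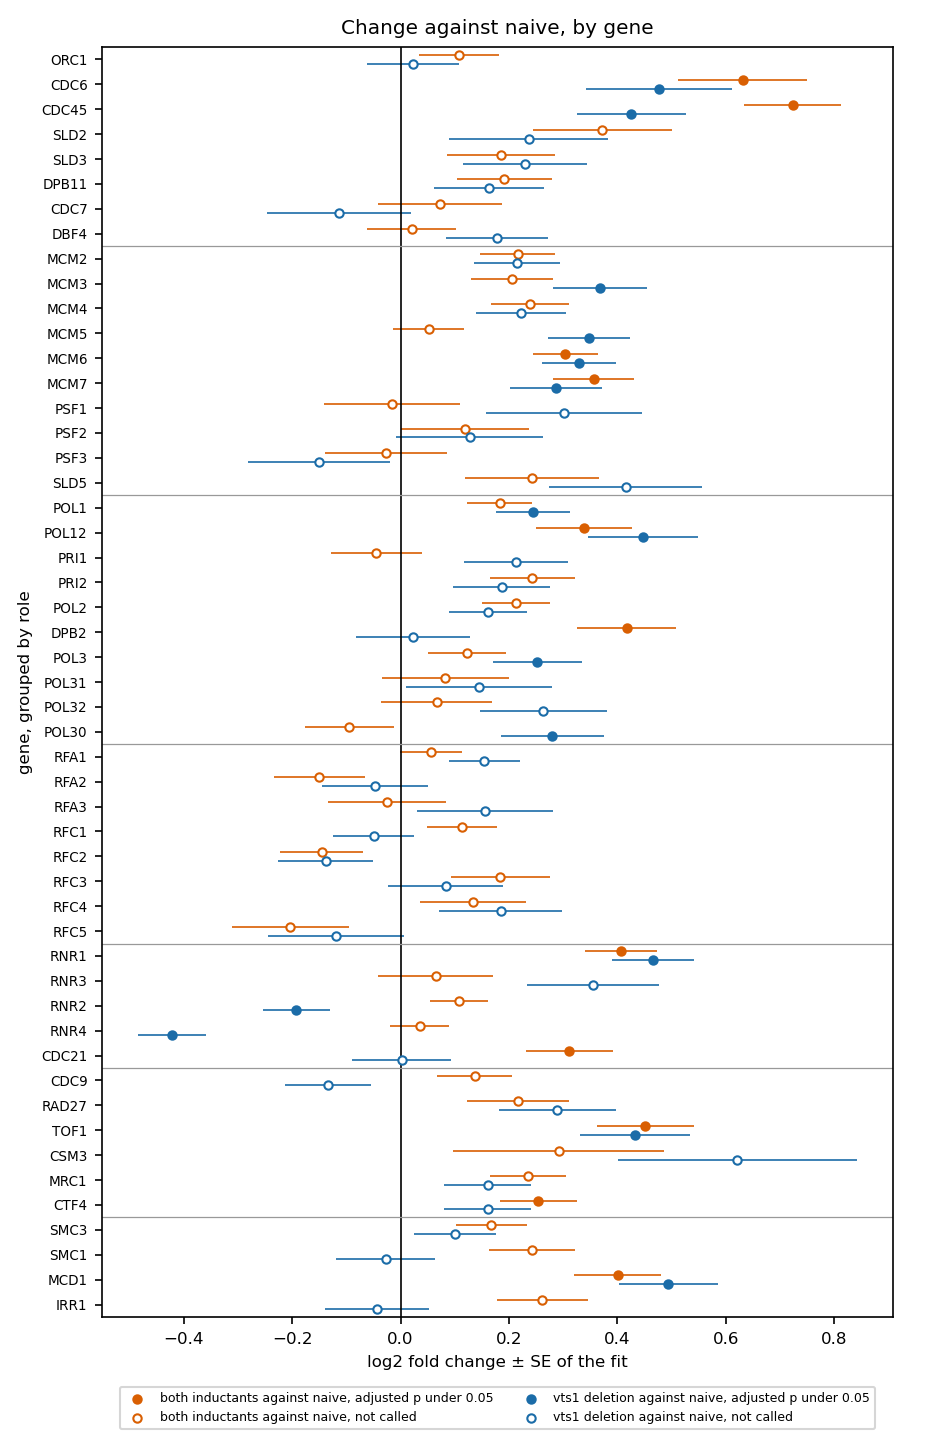
Log2 fold change against naive of each of the 51 genes, with the SE of the fit as bars, for both inductants together (orange) and the deletion (blue); filled points are called at an adjusted p under 0.05. Filled orange points lie between 0.25 and 0.72, and the 2 filled blue points left of 0 are RNR2 and RNR4.

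Across roles, 8 genes rose against naive in the inductants and in the deletion, namely CDC6, CDC45, MCM6, MCM7, POL12, RNR1, TOF1 and MCD1. Both comparisons use the same naive libraries, so these genes are named without reading the overlap as a result. Of these 8, CDC45 was the one that also differed between the inductants and the deletion. In all, edgeR called 23 of the 51 genes in at least 1 of the 3 comparisons and 28 in none. Singly, these comparisons called 8.57%, 26.3% and 37.6% of all genes. The share of all genes called in at least 1 of them is not given here, so the count of 23 is not read as a result. Of the 28 genes without a call by edgeR, DESeq2 called MCM4 and POL2, and limma PSF1, SLD5 and RAD27, in at least 1 comparison.

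Several of these calls rested on single libraries. The counts below from fits that leave out 1 library are not set against all genes called in the same fit. They describe how stable the calls are. In the inductants, CDC6, CDC45, MCM6, RNR1 and MCD1 held in all 8 fits that leave out 1 library, with highest adjusted p between 0.00516 and 0.0484. MCM7 and TOF1 lost their call without inductant 1 replicate 1 or naive replicate 1, reaching 0.0621 and 0.0587, and DPB2 without these or inductant 2 replicate 1, reaching 0.103. CDC21 and CTF4 kept theirs only without naive replicate 2, and POL12 in none of the 8, with adjusted p up to 0.17, 0.209 and 0.133. The count of 11 became 5 without inductant 1 replicate 1, 7 without inductant 2 replicate 1, 6 without naive replicate 1 and 20 without naive replicate 2, of which 1 was lower.

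In the deletion, RNR1, RNR4 and MCD1 held in all 8 fits. The count of 15 became 5 without deletion replicate 1 and 7 without deletion replicate 2. CDC45, MCM3, POL12 and TOF1 lost their call without deletion replicate 1 alone, and MCM5 and MCM6 without deletion replicate 2 alone, with adjusted p between 0.0647 and 0.12. POL30 and RNR2 kept theirs only without naive replicate 1, with adjusted p up to 0.241 and 0.288. CDC6 and MCM7 lost theirs without naive replicate 1 or either deletion library, reaching 0.114 and 0.206, POL1 without either deletion library, reaching 0.196, and POL3 in 5 of the 8 fits, reaching 0.184. Between the inductants and the deletion, RNR4 alone held in all 8, and the count of 12 became 7 without inductant 1 replicate 1, 2 without deletion replicate 1 and 5 without deletion replicate 2. DPB2, POL30, RNR2 and CDC21 lost that difference without deletion replicate 1 alone, reaching 0.0569 to 0.189, and MCM5 without deletion replicate 2 alone, reaching 0.0601. CDC9 lost it without either deletion library, and CDC45, SMC1 and IRR1 in 4 of the 8 fits, with adjusted p up to 0.0976, 0.226, 0.174 and 0.131. PRI1 and RNR3 lost it in 5 of the 8, with adjusted p up to 0.247 and 0.276.

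Taken singly against the same naive libraries, inductant 1 gave 5 genes that rose and none that fell, 9.8% of the list, where 4.4% of all genes were called, 1.2% higher and 3.19% lower. Inductant 2 gave 9 that rose and none that fell, 17.6%, where 9.04% of all genes were called, 3.24% higher and 5.79% lower. CDC45 was at 0.73 ± 0.10 (SE, adjusted p = 0.00523) in inductant 1 and 0.72 ± 0.10 (SE, adjusted p = 0.00126) in inductant 2, and CDC6 at 0.59 ± 0.13 (SE, adjusted p = 0.039, or 0.0719 with the row sharing reads summed) and 0.68 ± 0.13 (SE, adjusted p = 0.0109). TOF1 gave 0.41 ± 0.10 (SE, adjusted p = 0.0462) and 0.49 ± 0.10 (SE, adjusted p = 0.0138), and MCD1 gave 0.40 ± 0.09 (SE, adjusted p = 0.0383) and 0.40 ± 0.09 (SE, adjusted p = 0.0209). CDC21 rose in inductant 1, by 0.38 ± 0.09 (SE, adjusted p = 0.0441), and MCM6, MCM7, POL12, DPB2 and RNR1 in inductant 2, RNR1 by 0.51 ± 0.08 (SE, adjusted p = 0.00181). A call in one inductant and not in the other is no difference between them: directly compared, none of the 51 genes differed (edgeR, with 5 at an unadjusted p under 0.05, and 0 by DESeq2 and by limma), against 0.449% of all genes. The log2 differences ran from -0.39 ± 0.15 for PSF1 to 0.24 ± 0.14 for SLD5. The 5 genes of inductant 1 became 0 without its replicate 1, 2 without its replicate 2, 1 without any other library but naive replicate 2, and 18 without that one. The 9 genes of inductant 2 became 2 and 3 without its own replicates 1 and 2, and 17 without naive replicate 2.

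Grouped by promoter boxes, a split made after the values were seen and given with no test, 9 of the 11 genes that rose in the inductants had at least 1 MCB box, as did 10 of the 13 that rose in the deletion. In the inductants, 7 of the 13 genes with at least 2 boxes rose, with a median log2 fold change of 0.31. Among those with 1 box 2 of 18 rose, with a median of 0.14, and among those without a box 2 of 20, with a median of 0.12. The deletion gave 6 of 13, 4 of 18 and 3 of 20, with medians of 0.24, 0.19 and 0.16. Among tested genes outside the list, 4 of 20 with at least 2 boxes rose in the inductants, or 20%, with a median of 0.18. Of those with 1 box 4.18% of 263 rose, and of those with none 2.91% of 5403. In the deletion the shares were 25%, 13.3% and 12.1%. MCM6 and MCM7 were the genes with no box that rose in the inductants, and RFA2, with 2 boxes, had the lowest value of its class, -0.15.

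**Figure D4:**
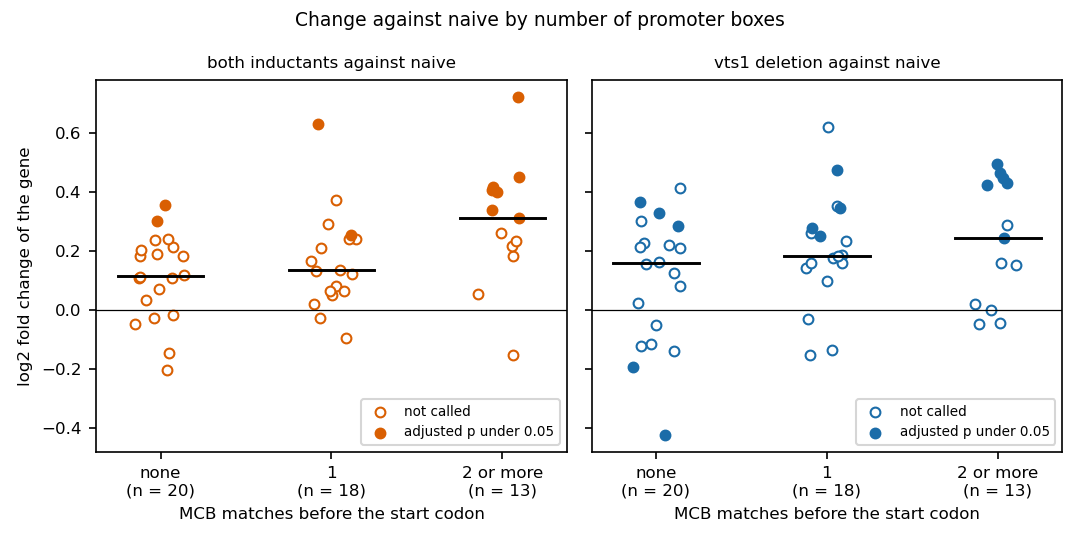
Log2 fold change against naive of each of the 51 genes by the number of ACGCGT matches in the 500 bases before the start codon, for both inductants (left) and the deletion (right); filled points are called and bars are medians. The medians rise from 0.12 without a box to 0.31 with at least 2 in the inductants, and the classes overlap.

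Other genes of the same processes and of the cell cycle were read beside the 51. Their counts stand against 2.97% of all genes higher and 5.6% lower in the inductants, and 11.7% higher and 14.6% lower in the deletion. Of 32 further replication, nucleotide and cohesion genes, 1 rose in the inductants, TOP1, which encodes topoisomerase I, by 0.36 ± 0.07 (SE, adjusted p = 0.0073), and none fell, so 3.12% rose, near the share of all genes. In the deletion 5 rose, or 15.6%, among them MSI1, a chromatin assembly factor subunit, by 0.70 ± 0.11 and ORC3, of the origin recognition complex, by 0.69 ± 0.13, and TOP2, topoisomerase II, fell by 0.33 ± 0.08 (SE, adjusted p = 0.0114). The medians were 0.14 and 0.19. Of 11 tested checkpoint and damage-induced genes, 2 rose in the inductants, among them the checkpoint kinase gene RAD53 by 0.35 ± 0.08, and none was called in the deletion, where 3 had an unadjusted p under 0.05 in edgeR, and DESeq2 and limma called 0.

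Of 19 other G1/S genes, 4 rose in the inductants, or 21.1%, and 14 in the deletion, or 73.7%, where 1 fell, with medians of 0.27 and 0.49. PCL1, a G1 cyclin, rose by 0.84 ± 0.10 in the inductants and 2.46 ± 0.11 in the deletion, YOX1, a repressor of M/G1 genes, by 1.15 ± 0.11 and 1.89 ± 0.13, and PCL2 by 0.43 ± 0.10 and 1.29 ± 0.12. CLN1, a G1 cyclin, rose in the deletion by 1.55 ± 0.07. Of 11 M/G1 genes, 5 rose in the inductants, or 45.5%, and 3 rose and 4 fell in the deletion, 27.3% and 36.4%. DSE4, a daughter-cell glucanase, rose in the inductants by 0.48 ± 0.08, and CTS1, the chitinase of cell separation, rose there by 0.23 ± 0.06 and fell by 0.54 ± 0.07 in the deletion. Of 13 G2/M genes, CDC5, a polo kinase gene, rose in the inductants by 0.27 ± 0.07 and in the deletion by 0.36 ± 0.08, where the B-type cyclin gene CLB1 also rose, by 0.72 ± 0.07. In the inductants the median log2 fold changes were 0.18 for the M/G1, 0.17 for the G2/M and 0.18 for the checkpoint genes. That of the 51 genes was 0.18. In the deletion these medians were 0.06, 0.03 and -0.02, and that of the 51 genes was 0.18. The 9 core histone genes, which are transcribed in S phase, went the other way in the inductants. There 8 of their 9 values were below 0, with a median of -0.20, and HTA1 fell by 0.48 ± 0.08 (SE, adjusted p = 0.00387) and HHF2 by 0.24 ± 0.05 (SE, adjusted p = 0.0204), which is 22.2% of these genes. In the deletion HHF1 rose, HHT2 fell and the histone median was 0.02. In the inductants DESeq2 called 7 G1/S, 5 M/G1, 3 G2/M, 3 checkpoint and 2 histone genes, and limma called 3, 2, 0, 0 and 1. The shares of all genes called by DESeq2 and limma are not given beside these counts. The part of cell cycle position in the values of the 51 genes was not tested.

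**Figure D5:**
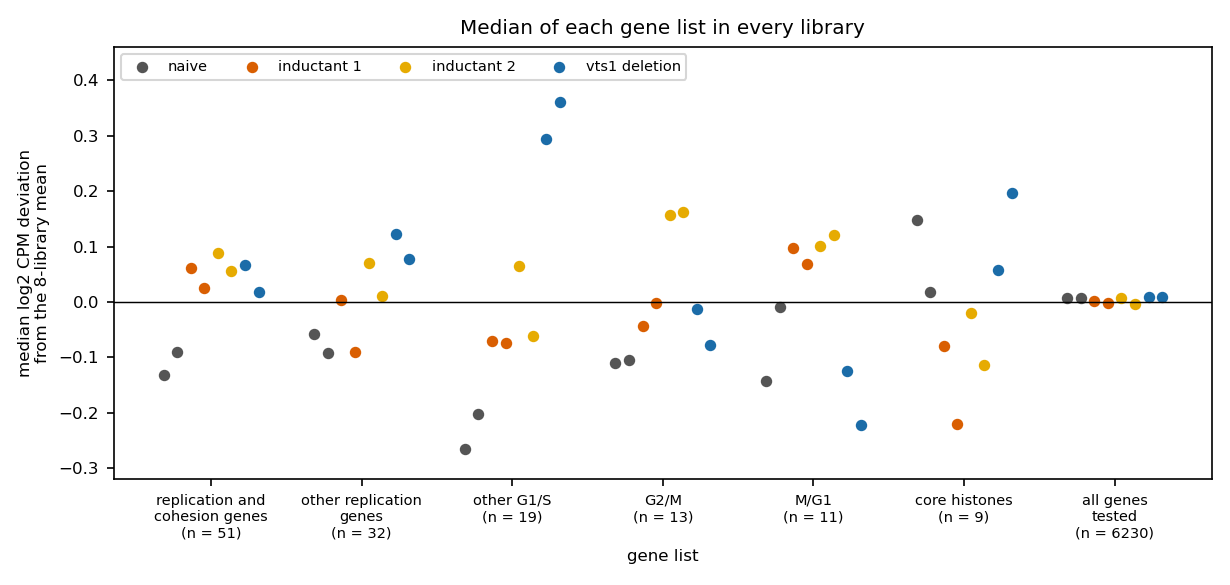
Median log2 CPM deviation from the 8-library mean of each gene list in every library (1 dot per library, coloured by group). For the 51 genes the naive libraries lie lowest, at -0.13 and -0.09. They also lie lowest for the other G1/S genes, at -0.27 and -0.20, and for the G2/M genes, at -0.11 and -0.10. The other G1/S genes are highest in the deletion, and the core histones lie below 0 in the 4 inductant libraries.

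Per length, the levels of the 51 genes spanned a wide range. RNR4 and RNR2 had the highest mean over the 8 libraries, 646 and 615 TPM, above 95.6% and 95.4% of tested genes. RNR1 followed at 268 TPM, POL30 at 131, RFA3 at 109.8 and CDC21 at 66.3. RNR3 was lowest at 8.64 TPM, above 9.23% of tested genes, then CSM3 at 11.4 and SLD3 at 13.7. CDC45, with the largest change in the inductants, was at 15.2 TPM. The 6 MCM genes lay within 28.6 and 54.3 TPM and the 4 cohesin genes within 30.6 and 42.2; the GINS genes, at 17.0 to 46.1 TPM, were more spread.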

How the data were processed

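Ribosomal-RNA-depleted total RNA of 8 cultures was sequenced. The authors deposited 1 table per library with estimated counts and TPM per gene, which per the submitters' processing notes came from kallisto with R64. The kallisto version, read layout and strand setting were not given in the sources used here. Estimated counts deposited by the authors were rounded to whole numbers for the tests, and the deposited TPM were used for levels per length and for 1 alternative. Row lengths per the file headers are coding lengths, as 99.97% of them are multiples of 3. With the strand setting unknown, reads of a gene and of an overlapping antisense transcript cannot be told apart. The libraries held 18431474 to 27501966 estimated counts.

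Tests used R 4.3.3 with edgeR 4.0.16 (robust quasi-likelihood, TMM factors 0.9464 to 1.093, the filterByExpr filter by group, 1 mean per group over 8 libraries, 4 residual degrees of freedom), with Benjamini-Hochberg adjustment over all 6230 genes tested and a threshold of 0.05. Inductants entered with equal weights. The model was tested on simulated data. Alternatives were RLE scaling, no filter, DESeq2 1.42.0, limma 3.58.1 on log2(TPM + 1), the groups compared alone, a replicate block, each library left out and, chosen after seeing the data, sums with a row sharing reads. Genes given with a value in every library are those called in any comparison with naive or between inductants and deletion. The other 28 are given as fold changes, and at most 4 called genes of each related list are named, those of smallest adjusted p. The members and lists were chosen with earlier results of these data known. Sequences are from RefSeq R64. Counts of 10 genes were fractional in at least 1 library. One called gene of the related lists is not reported here by name.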

Additional observations from a re-analysis of the deposited data

How the results depend on the processing

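The direction of every called gene was kept under all alternatives run. The count of called genes out of 51 moved by more than 1.5 times in these cases. These counts are not set against all genes called under the same setting. For both inductants against naive, 11 genes became 6 with limma on log2(TPM + 1), and 5 to 20 with 1 library left out. For the deletion against naive, 15 became 9 when only the groups compared were fitted, and 5 to 16 with 1 library left out. The 12 genes between inductants and deletion became 2 to 14 with 1 library left out. For inductant 1 against naive, 5 became 10 with DESeq2, 0 with limma, 1 with only the groups compared, and 0 to 18 with 1 library left out. For inductant 2 against naive, 9 became 3 with limma, 4 with only the groups compared, and 2 to 17 with 1 library left out. With the replicate block, inductant 1 against naive gave 8 genes, and both inductants against naive 11, the deletion against naive 19 and inductant 2 against naive 9. The correlations of same-numbered deviations ran from -0.08 to 0.18 over the 6 pairs of groups, with 2 replicates each. They cannot show whether same-numbered samples were handled together. The median change of the 51 genes against naive stayed between 0.14 and 0.24 in the inductants and between 0.16 and 0.27 in the deletion. Of 780 single-gene values under an alternative, 592 kept their side of the threshold and 188 were no longer past it. The causes were not tested. A group has 2 libraries, which limits what can be called.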

Other observations

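Counts of 6 of the 51 genes were split with a neighbouring row that RefSeq R64 does not list, and the sum of the pair was whole within 0.02. The share of the pair assigned to that row was largest for CDC6, where YJL195C took 9.87 to 19.61%. It was 6.37 to 7.01% for RFC1 with YOR218C, 3.01 to 5.84% for CDC21 with YOR073W-A, 1.08 to 3.78% for DBF4 with YDR053W, 0.47 to 4.51% for POL30 with YBR089W and 0 to 3.31% for CDC9 with YDL163W. RNR2 was fractional in all 8 libraries and had no such partner row. Among the 41 genes whose counts were whole in every library, 7 rose and none fell in the inductants against naive. That is 17.1%, where 8.57% of all genes were called, 2.97% higher and 5.6% lower. In the deletion 9 of the 41 rose and 1 fell, so 24.4% were called, near the 26.3% of all genes. Of the 41, 22% were higher and 2.44% lower there, against 11.7% and 14.6% of all genes.

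Within a pair of replicates, the 51 genes moved in one direction more often in some groups than in others. The number of the 51 that were higher in replicate 1 than in replicate 2 was 37 in the deletion, 19 in naive, 34 for inductant 1 and 30 for inductant 2. Such counts are not given for all genes. In the same order, the median log2 difference, replicate 1 minus replicate 2, was 0.08, -0.05, 0.05 and 0.04 over the 51. Over all genes it was -0.0005, -0.014, 0.002 and -0.003. The median absolute log2 difference between the replicates over the 51 genes was 0.14 in naive, against 0.15 over all genes, and 0.08 to 0.09 in the other groups, against 0.08 to 0.11 over all genes.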
